A study of Mus musculus and Rattus norvegicus with 96 samples.

Results

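This report describes 101 rat genes that were almost silent in frozen lung and were counted in formalin-fixed, paraffin-embedded lung. They were chosen by their measured values: a mean under 1 CPM in frozen lung, under 20 CPM in frozen liver, and at least 20 CPM in both groups of embedded lung. CPM is the count of a gene per 1000000 counts of its library. Of 28756 genes listed for both tissues, 2919 had an estimated count above 0, however small, in any rat library. Another 608 genes lay under both frozen limits and did not reach the floor in both embedded lung groups. Fewer cells of a type and less RNA per cell cannot be told apart in such bulk samples.

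The study asked how formalin fixation changes gene expression profiles. The rat samples were measured with TempO-Seq, an assay in which pairs of short detector oligos bind next to each other on a target RNA, are ligated, amplified and counted, so that no reverse transcription of the tissue RNA is needed and short RNA fragments can be measured. The rat panel holds 2636 probes for 2603 genes, per the labels. The 2919 genes with an estimated count above 0 outnumber these, and fractions of a count are included in them. All rats were male vehicle controls, and their age is not given in the labels. Lung came from WKY rats and was frozen (FR, 6 libraries), frozen, then put for 18 to 24 h into 10% neutral buffered formalin (NBF) and embedded (FR>FFPE, 6 libraries), or fixed directly in 10% NBF for 1 year before embedding (FFPE 1 yr, 6 libraries). Liver came from F344 rats and was FR, FR>FFPE or fixed directly for 18 to 24 h (FFPE), with 6 libraries each. Lung and liver therefore differ in strain as well as tissue, and no test was made between them. The sample names mark the frozen samples as purified RNA and the embedded samples as FFPE material, which the protocol describes as deparaffinized lysates. Preservation and the kind of input thus changed together and cannot be told apart. No label says whether replicates of a group are separate animals, so p-values measure the spread between these libraries.

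Most of the 101 genes are known from tissues other than lung. A gene's RNA is usually made in quantity in a few cell types, and a panel meant to represent a whole transcriptome holds genes of neurons, muscle, endocrine glands, gut, kidney and immune cells that a lung or a liver would not be thought to express strongly. The 101 genes were low in frozen lung and liver because the rule required it. Of 58 counted genes from the lists of tissue genes described below, 36 lay under both frozen limits.

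Depth differed between groups. Total counts were 2013607 to 2505947 in frozen lung, apart from library 54, which held 12 counts and was left out. They were 802686 to 1786809 in FR>FFPE lung, 226751 to 1634580 in FFPE 1 yr lung, 3040915 to 3970187 in FR liver, 2156625 to 3898088 in FR>FFPE liver and 139475 to 889128 in FFPE liver. At 20 CPM a gene has 16.1 to 35.7 counts in an FR>FFPE lung library, but only 4.54 counts in the shallowest FFPE 1 yr lung library and 2.79 counts in the shallowest FFPE liver library. Labelled tissues were checked with markers. Cav1, a caveolar protein of lung endothelium and alveolar type I cells and the only measured gene of 14 lung markers, had a mean of 5900 CPM in FR lung and 11.8 CPM in FR liver, and 1730 and 1920 CPM in FR>FFPE and FFPE 1 yr lung. The 2 measured genes of 4 blood markers, Hbb and Alas2, had summed levels of 32500 to 47500 CPM in FR lung, 8770 to 26100 CPM in FR>FFPE lung and 22700 to 33900 CPM in FFPE 1 yr lung. The part of these shifts in the levels of the 101 genes was not tested. Of 14 hepatocyte markers 12 were measured, with summed levels of 245000 to 299000 CPM in FR liver and 140 to 260 CPM in FR lung.

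In frozen lung the 101 genes together took 20.1 to 25.6 CPM of a library, and in each frozen library at most 37 of them had a count. In FR>FFPE lung they took 10100 to 14200 CPM, or 1.01% to 1.42% of all counts, and all 101 were counted in each of the 6 libraries. In FFPE 1 yr lung they took 2860 to 14300 CPM. The rule fixed these directions, so they are a description and carry no test. For 34 genes no count was found in the 5 frozen lung libraries, which allows a level of up to 0.266 CPM (3 counts over the group, counting error only). Against that limit, the means of these 34 genes were at least 75.6-fold higher in FR>FFPE lung and 82.1-fold higher in FFPE 1 yr lung. The floor of 20 CPM set a lower bound on these folds in advance, so their size is a description too.

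**Figure D1:**
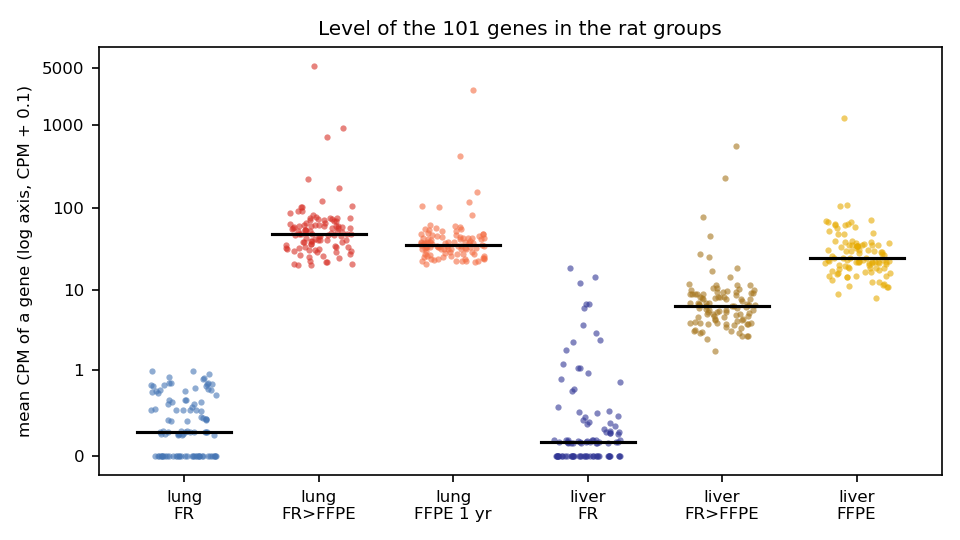
Mean CPM of each of the 101 genes (points, log axis of CPM + 0.1) in the 6 rat groups, with the median over genes as a black bar. Lung groups and frozen liver were used to choose the genes, and the medians run from 0.0948 in FR lung to 48.7 and 35.5 CPM in embedded lung, and from 0.0443 in FR liver to 6.43 and 24.4 CPM in embedded liver.

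Most of the genes lay in a narrow band in embedded lung. In FR>FFPE lung the middle of the list, between the lower and the upper quartile, ran from 34.3 to 65.1 CPM, and in FFPE 1 yr lung from 29 to 44.4 CPM. Only 9 genes reached 100 CPM in FR>FFPE lung and 6 in FFPE 1 yr lung. Over all 2029 genes at 20 CPM or more in both embedded lung groups the quartiles were 62.7 and 337 CPM in FR>FFPE lung. The rule itself cut the list at 20 CPM from below.

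The genes just inside and just outside the lung limits had similar values, and those at the frozen liver limit lay further apart. In FR lung Stil, a centriole assembly factor (0.971 CPM), Phlda3 (0.954 CPM) and Txlnb (0.868 CPM) were inside, and Dusp22 (1.01 CPM), Ube2c (1.03 CPM) and Stk3 (1.04 CPM) outside. In FR liver Hsd17b2 (18.6 CPM), Abcg5 (14.4 CPM) and Acot4 (12.2 CPM) were inside, and Cyp4a8 (24.3 CPM), Kynu (27.6 CPM) and Glyat (34.3 CPM) outside. In FR>FFPE lung Cacng1 (20.1 CPM), Lrrc14b (20.2 CPM) and Pkm (20.5 CPM) were inside, and Chat (19.9 CPM), Fcgbpl1 (19.8 CPM) and Crmp1 (19.7 CPM) outside. In FFPE 1 yr lung Hsd17b2 (20.8 CPM), Olr414 (21.8 CPM) and Slc6a18 (22.3 CPM) were inside, and Defa7 (19.6 CPM), Scg5 (19.1 CPM) and Smtnl1 (19.1 CPM) outside. A further 55 genes met the lung limits and were left out by the limit in frozen liver. When every single library, not the group mean, had to pass the limits, 11 genes remained, and with a floor of 50 CPM 13 remained.

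Genes were also set out by their level in frozen lung. The 800 genes under 1 CPM in FR lung, from which the 101 come, had medians of 0.448 CPM in FR>FFPE lung and 0.566 CPM in FFPE 1 yr lung. Of these 800, 156 had 20 CPM or more in both. The median of the 800 in FR lung was 1.29e-10 CPM, so many had 0 or a tiny fraction of a count there. The 493 genes at 1 to 10 CPM in FR lung had a median of 3.51 CPM there, 29.7 CPM in FR>FFPE lung and 35.2 CPM in FFPE 1 yr lung. The genes at 10 to 100 CPM had medians of 34.6, 79 and 79.4 CPM. At 100 to 1000 CPM the medians were 273, 281 and 289 CPM over 732 genes. For the 185 genes above 1000 CPM they were 1860, 1470 and 1540 CPM. From 1 CPM upward, the ratio of these medians in embedded to frozen lung was larger the lower the genes stood in frozen lung.

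**Figure D2:**
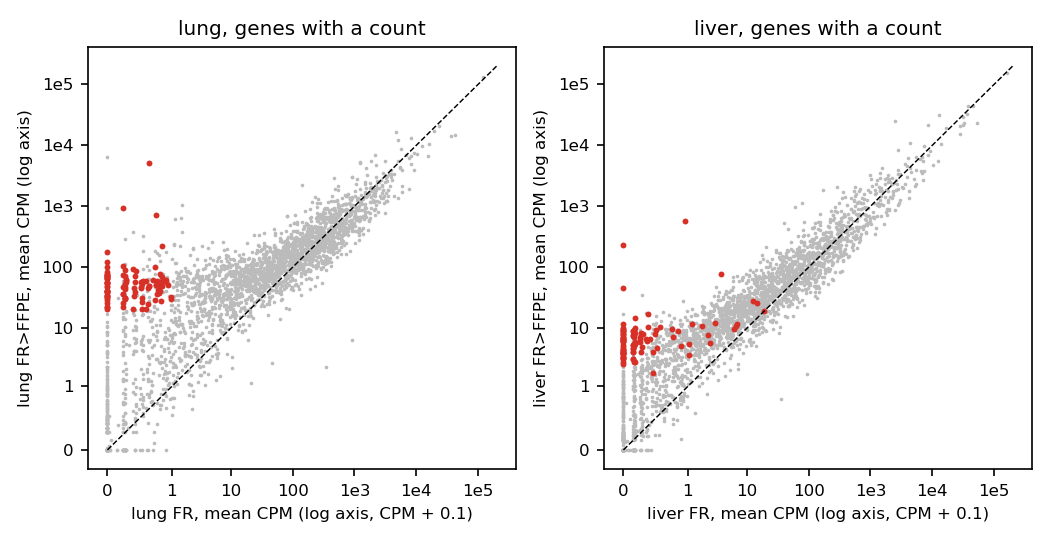
Mean CPM (log axes, CPM + 0.1) in FR>FFPE against FR for the 2919 genes with an estimated count above 0, in lung (left) and liver (right). The 101 genes are in red, the others in grey and equality is a dashed line. In lung the red points lie left of 1 CPM and above 20 CPM because the rule put them there, and in liver most lie between 1.74 and 20 CPM on the vertical axis.

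By the tissue each gene is known for, 24 of the 101 belong to neurons, glia and sense organs, 12 to striated muscle and heart, 10 to steroid synthesis, pituitary and gonad, 8 to the epithelium of gut and kidney, 10 to liver and lipid metabolism, 10 to immune signals and inflammation, and 5 to cell division. A further 10 were placed elsewhere and 12 are loci with no gene name. The grouping was made by hand after the values were seen. The class medians in FR>FFPE lung ran from 29.7 CPM for the genes placed elsewhere to 73.4 CPM for steroid, pituitary and gonad genes, and in FFPE 1 yr lung from 28.2 CPM for gut and kidney genes to 42.1 CPM for the unnamed loci.

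The nervous system genes included receptors, transporters and structural proteins. Among the receptors were the nicotinic acetylcholine receptor subunits Chrna2, Chrna4 and Chrna6, the NMDA receptor subunit Grin2a, the GABA receptor subunit Gabra5 and the dopamine receptor Drd2. Transporters and enzymes of neurotransmitters were Slc6a3, which takes up dopamine, Slc17a6, which loads glutamate into vesicles, and Gad1 and Ddc, which make GABA and the monoamines. Nefl and Ina are neurofilament proteins, Tubb3 is a neuronal tubulin, S100b is a glial calcium-binding protein and Pde6b a phosphodiesterase of rod photoreceptors. All 24 lay between 21.8 and 71.3 CPM in FR>FFPE lung and between 21.8 and 60.3 CPM in FFPE 1 yr lung. Gad1 had no count in the frozen libraries of either tissue, and ran from 45.9 to 86.3 CPM with a median of 72 CPM in FR>FFPE lung. In embedded liver Gad1 had a median of 2.55 CPM (range 0.927 to 20.9) in FR>FFPE and 14.9 CPM (range 7.78 to 57.4) in FFPE. Each embedded library of both tissues thus lay above each frozen library for Gad1. In lung each embedded library lay above each FR library in 100 of the 101 genes, as the rule favours, and in 47.1% of all 2322 genes tested. Tubb3 was the exception, since it had 0 counts in FFPE 1 yr library 63, the shallowest of its group.

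The muscle genes held enzymes, proteins of the contractile apparatus and proteins of calcium release. Pgam2 is the muscle phosphoglycerate mutase of glycolysis, Ckmt2 the mitochondrial creatine kinase of striated muscle, Myoz2 a Z-disc protein of heart and slow muscle, Myl1 a myosin light chain of fast muscle and Trdn a junctional protein of the sarcoplasmic reticulum. Pgam2 had 639 CPM and 683 CPM in FR>FFPE lung libraries 57 and 59 and 4.16 to 8.72 CPM in the other 4. Its mean of 224 ± 339 CPM (SD, n = 6) therefore rested on these 2 libraries, and without both of them Pgam2 would not have reached the floor. Ckmt2 was also highest in libraries 57 and 59, at 121 and 200 CPM against 31.2 to 67.3 CPM in the others. Myoz2 had 162 and 153 CPM in these libraries and 63.4 to 93.2 CPM in the others. Myl1 did not share this order, at 69.9 and 52.6 CPM against 58.6 to 74.8 CPM.

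Genes of steroid and pituitary hormones formed another set. Cyp11a1, Cyp17a1, Cyp11b2 and Cyp19a1 are P450 enzymes from cholesterol side-chain cleavage to oestrogen synthesis, Hsd3b2 and Hsd17b2 are steroid dehydrogenases, Prl and Fshb encode the pituitary hormones prolactin and the beta chain of follicle-stimulating hormone, Gnrhr is the pituitary receptor that drives gonadotropin release, and Gdf9 is a growth factor of the oocyte. Prl had no count in any of the 5 frozen lung and 6 frozen liver libraries. It ran from 58.8 to 88.3 CPM in FR>FFPE lung (median 79.3) and from 6.33 to 63.4 CPM in FFPE 1 yr lung (median 17.3). Hsd3b2 (chromosome 2, 200585748 to 200762493, minus strand, rn6) overlaps Hsd3b5 on the same strand in the annotation, and Hsd3b5 had 185 CPM in FR liver, so the division of reads between them is uncertain. Its mean was 90.5 ± 24.1 CPM in FR>FFPE lung and 82.2 ± 47.7 CPM in FFPE 1 yr lung (SD, n = 6 each).

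Among the immune genes Ptgdr, a receptor of prostaglandin D2, stood highest. It lies on chromosome 15 (18088897 to 18096040, minus strand, rn6). Ptgdr had 0 to 1.22 CPM in FR lung, 574 to 861 CPM in FR>FFPE lung (median 743) and 46.9 to 290 CPM in FFPE 1 yr lung (median 156). The other immune genes included cytokines (Il10, Il20, Il36g and Ifnb1), Tnfrsf17, a receptor of plasma cells, Serpinb2, an inhibitor of plasminogen activators, Selp, the P-selectin of platelets and endothelium, and the collagenase Mmp1. Il20 had 56.1 to 122 CPM in FR>FFPE lung and 15.2 to 88.3 CPM in FFPE 1 yr lung, against at most 0.798 CPM in FR lung.

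Liver and lipid genes entered the list only where their level in frozen liver was under 20 CPM. Abcg5 and Abcg8 encode the paired sterol exporter of liver and gut, Acot4 a peroxisomal acyl-CoA thioesterase, Afp the fetal serum protein alpha-fetoprotein, Aldh1l1 a folate enzyme, and Ucp1 the uncoupling protein of brown fat. Acot4 (chromosome 6, 107517668 to 107522953, plus strand, rn6) had 84.5 to 128 CPM in FR>FFPE lung and 25.3 to 109 CPM in FFPE 1 yr lung. Abcg8 (chromosome 6, 7961413 to 7980709, plus strand) had no count in FR lung and 65.5 to 154 CPM in FR>FFPE lung. Beside these, 10 of the 12 measured hepatocyte markers had a higher mean in both embedded lung groups than in FR lung. The summed level of the 12 was 140 to 260 CPM in FR lung. It was 1060 to 1880 CPM in FR>FFPE lung and 545 to 3100 CPM in FFPE 1 yr lung. Alb, the most abundant of them in FR liver, had means of 78.8 and 234 CPM in embedded lung and 19.2 CPM in FR lung. Cyp3a2 had the highest means of them in embedded lung, 1030 and 583 CPM, against 1.53 CPM in FR lung. Tf was lower in both embedded lung groups and Serpina1 in FR>FFPE lung. Genes at 1 to 10 CPM in FR lung also stood higher in embedded lung. Their medians were 3.51 CPM in FR, 29.7 CPM in FR>FFPE and 35.2 CPM in FFPE 1 yr lung. No measured hepatocyte marker was at 0 in embedded lung, the lowest being Cps1 at 0.102 CPM in FFPE 1 yr lung. Cps1 was at 0 in FR lung. Whether hepatocyte RNA had a part in the levels of the 101 genes was not tested.

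Genes of gut and kidney were transporters and secreted or surface proteins of epithelium. Reg3g is an antibacterial lectin of the gut, Tff1 a trefoil peptide of the stomach, Slc51b a subunit of the bile acid exporter, Mep1b a subunit of the brush border protease meprin, and Slc6a18 a neutral amino acid transporter of the kidney. Reg3g had 54.8 to 87.3 CPM in FR>FFPE lung and 14.7 to 83.8 CPM in FFPE 1 yr lung, and Slc51b 37.5 to 72.9 and 13.2 to 88.5 CPM. The other 6 had means of 25.7 to 38.6 CPM in FR>FFPE lung.

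The cell division genes were Kif11, the motor that separates spindle poles, Esco2, an acetyltransferase of sister chromatid cohesion, Skp2 and Dtl, which select proteins for breakdown in the cell cycle, and Stil. Esco2 and the unnamed locus Rn50_15_0609.1 had whole counts in only 5.56% of libraries each. Their means were 48 and 60.2 CPM in FR>FFPE lung and 7 and 8.78 CPM in FR>FFPE liver. This proportion was nearly the same in every group, so the 2 may hold the same divided reads and the level of Esco2 is uncertain. Kif11 had no count in FR liver, 49.9 to 89.2 CPM in FR>FFPE lung and 4.64 to 15.9 CPM in FR>FFPE liver. Skp2 had 49.2 to 73.4 CPM in FR>FFPE lung, and in liver 0 to 0.835 CPM in FR, 3.66 to 20.3 CPM in FR>FFPE and 32.6 to 79.8 CPM in FFPE. Its FFPE liver libraries thus lay above all FR>FFPE ones. The genes placed elsewhere were Pkm, Cda, Selenoi, Apod, Wdr7, Ebf3, Krt4, Ptk2b, Phlda3 and Lrrc14b, with FR>FFPE lung means from 20.2 CPM (Lrrc14b) to 81.8 CPM (Cda, the cytidine deaminase).

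Unnamed loci held the highest values. LOC100360856 (chromosome 9, 8349033 to 8442299, plus strand, rn6) had 0 to 0.948 CPM in FR lung, 4200 to 6140 CPM in FR>FFPE lung (median 5160) and 1230 to 5800 CPM in FFPE 1 yr lung (median 2020). LOC100910057 (chromosome 9, 4072823 to 4114975, plus strand), which overlaps Sult1c2 on the same strand, had 766 to 1100 CPM in FR>FFPE lung and 171 to 793 CPM in FFPE 1 yr lung. AABR07059925.1 (chromosome 4, 43915333 to 43916029, plus strand) had 109 to 204 and 60.1 to 191 CPM, and LOC103689940 (chromosome 2, 216339154 to 216382261, minus strand) 101 to 152 and 25.9 to 242 CPM. The estimated counts of these 4 loci were not whole numbers in many libraries, down to 2.78% whole for AABR07059925.1, so reads were divided between them and other features and their values are uncertain. Fractions occurred in 13 of the 101 genes, Esco2 and Rn50_15_0609.1 among them, and in the other 88 each count was whole.

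Lists of tissue genes, fixed with earlier results of these data known, gave a count over genes not picked by their values here. The 9 lists held 170 genes, of which 58 had a count, 36 lay under both frozen limits and 17 were among the 101. For brain, 16 of 34 genes had a count, 11 lay under the frozen limits and 6 were among the 101 (Grin2a, Gad1, Nefl, Drd2, Chrna4 and Slc6a3). For pituitary, adrenal and gonad the numbers were 20, 13, 8 and 6 (Prl, Fshb, Cyp11a1, Cyp11b2, Cyp17a1 and Cyp19a1). Muscle and heart had 31 listed, 14 counted, 5 under the limits and 1 among the 101 (Myl1), and pancreas and gut 27, 8, 6 and 1 (Tff1). Of 16 genes of T cells and other cytokines 3 had a count, all under the limits, and Il10 and Ifnb1 were among the 101. Of 5 eye genes 1 had a count, Pde6b, and it was among the 101. Of 13 kidney genes 3 had a count, 2 lay under the limits and none was among the 101. No gene of the testis (16 listed) or skin (8 listed) lists had a count. Whether listed genes without a count have a probe on the panel was not known, so they are not read as measured and absent.

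The genes were then followed into embedded liver, which the rule did not use. In FR liver they took 71 to 101 CPM of a library together. In FR>FFPE liver they took 987 to 3050 CPM and in FFPE liver 2130 to 9010 CPM. Every one of the 101 had a mean above 0 in both embedded liver groups. In FR>FFPE liver 32 genes had a mean of 1 to 5 CPM, 63 of 5 to 20 CPM and 6 of 20 CPM or more, and in FFPE liver 30 had 5 to 20 CPM and 71 had 20 CPM or more. The other 608 genes under both frozen limits had 20 CPM or more in 9 cases in FR>FFPE liver and 62 in FFPE liver. Their medians were 6.69e-07 and 7.36e-29 CPM, so many had 0 or a tiny fraction of a count and compare poorly with the 101. A closer set is the 138 of these 608 with at least 1 CPM in both embedded lung groups, of which 7 had 20 CPM or more in FR>FFPE liver and 59 in FFPE liver, with medians of 1.33 and 16.7 CPM. In 86 of the 101 genes each FR>FFPE liver library lay above each FR liver library, as it did in 46.4% of all 2281 genes tested. In 90 of the 101 each FFPE liver library lay above each FR liver library, as it did in 67% of all genes tested. The rule held frozen liver under 20 CPM, and nothing is read from these counts.

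The edgeR quasi-likelihood test, where a call needed a change of at least 2-fold and a p under 0.05 after Benjamini-Hochberg adjustment, was fitted to all genes of the liver table. The filter on low counts kept 100 of the 101, leaving out Drd2. For FR>FFPE against FR liver 91 of these were called higher and none lower, where 33.6% of all 2281 genes tested were called higher. For FFPE against FR liver 96 were called higher and none lower, where 39.9% of all genes were. The limit in frozen liver held down the FR side of both contrasts, so nothing is read from these counts about the genes. The members not called higher in FFPE liver were the liver and lipid genes Abcg5, Acot4 and Glyatl2, and Hsd17b2, all with 6 CPM or more in FR liver. Hsd17b2 had 8.88 to 26.2 CPM in FR liver, 15 to 23.3 CPM in FR>FFPE liver and 18 to 71.7 CPM in FFPE liver, and these groups overlapped.

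The highest of the genes in embedded liver were largely those highest in embedded lung. LOC100360856 had 299 to 1160 CPM in FR>FFPE liver (median 489) and 655 to 2370 CPM in FFPE liver (median 1050), against 0.329 to 1.28 CPM in FR liver. AABR07059925.1 had 201 to 245 CPM in FR>FFPE liver and 5.33 to 327 CPM in FFPE liver. LOC100910057 had 61.8 to 120 and 66.3 to 168 CPM, and LOC103689940 12.6 to 26.8 and 14.5 to 122 CPM. Ptgdr had no count in FR liver, 25.7 to 97.9 CPM in FR>FFPE liver (median 36.5) and 7.78 to 165 CPM in FFPE liver (median 21.1).

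Acot4, Afp and Selp were the other genes with the highest embedded liver means. Acot4 had 6.08 to 15.7 CPM in FR liver, 18.3 to 38.4 CPM in FR>FFPE liver and 43.9 to 143 CPM in FFPE liver, so that the 3 groups did not overlap in CPM. Its log2 fold changes with TMM scaling were 0.39 for FFPE against FR>FFPE, 0.41 for FR>FFPE against FR and 0.79 for FFPE against FR. Acot4 was not called in any of these contrasts, so the size of the separation depends on the scaling. Afp had 0.987 to 4.25, 4.07 to 31.1 and 32.6 to 100 CPM, and its FR and FR>FFPE libraries overlapped. Selp had at most 0.64 CPM in FR liver, 2.04 to 26 CPM in FR>FFPE liver and 31.1 to 151 CPM in FFPE liver.

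The lowest were Slc7a13, a kidney amino acid transporter, Srl, a luminal protein of the sarcoplasmic reticulum, LOC100909868 and Drd2. Slc7a13 had means of 3.94 ± 2.02 CPM in FR>FFPE and 10.8 ± 10 CPM in FFPE liver, and Srl 2.99 ± 1.87 and 11.4 ± 10.1 CPM (SD, n = 6 each). LOC100909868 had 3.83 ± 1.01 and 8.94 ± 3.98 CPM. Drd2 had 0.464 to 7.77 CPM in FR>FFPE liver and 0 to 30.5 CPM in FFPE liver, the latter on 0 to 10 counts a library.

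For most of the genes the embedded liver mean was below that of embedded lung. The ratio of the FR>FFPE lung mean to the FR>FFPE liver mean had a median of 7.54 over the 101 genes, with quartiles of 6.37 and 9.32, and it was above 1 in 100 of them. The exception was AABR07059925.1 at 0.769, and the highest ratio was that of Pgam2 at 129. For FFPE 1 yr lung over FFPE liver the median was 1.44, with quartiles of 1.12 and 2, and the ratio was above 1 in 83 genes. The rule set a floor in embedded lung and none in embedded liver, which favours this direction, so nothing is read from these ratios. All 2029 genes at 20 CPM or more in both embedded lung groups also had lower medians in liver. These were 129 CPM in FR>FFPE lung and 31.9 CPM in FR>FFPE liver, and 128 CPM in FFPE 1 yr lung and 76.9 CPM in FFPE liver. The order of the genes was partly shared, with a Spearman correlation across the 101 genes of 0.691 between the FR>FFPE groups of the tissues and 0.617 between FFPE 1 yr lung and FFPE liver. These points share the probes and the assay, and genes are not independent replicates.

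**Figure D3:**
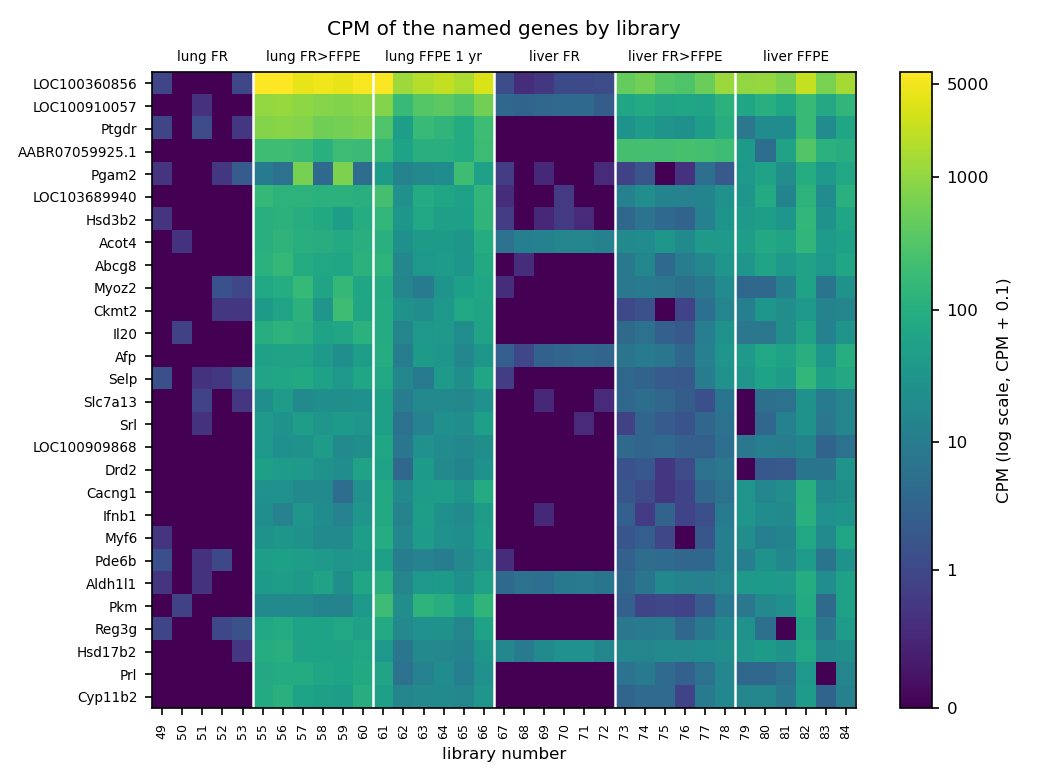
CPM (colour, log scale of CPM + 0.1) of the 28 genes named by the rule for naming genes, in each of 35 rat libraries (columns, by library number, with white lines between groups). The frozen libraries are near 0 apart from Acot4, Afp, Aldh1l1, Hsd17b2 and LOC100910057 in liver, and Pgam2 stands out in lung libraries 57 and 59.

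Direct fixation was compared with fixation after freezing in liver, a contrast of which the rule used neither side. Of the 100 genes tested, 38 were higher in FFPE than in FR>FFPE liver and 2 were lower, where 23.2% of all 2281 genes tested were called higher and 10.9% lower. The median log2 fold change was 0.83 over these genes and 0.07 over all genes. With the column total as library size and no TMM scaling (trimmed mean of M values), 69 were higher and 1 lower, where 47.1% of all genes were called higher, and the medians were 1.76 and 0.98. The difference between the medians was thus close in both scalings. Of the FFPE libraries, 82 was the shallowest at 139475 counts and had the highest median level of the 101 genes. Without it 32 of the genes tested were higher and 2 lower. Other genes low in frozen lung were also higher in FFPE liver in CPM. For the closer set of 138 genes above, medians were 1.33 CPM in FR>FFPE and 16.7 CPM in FFPE liver. For the 493 genes at 1 to 10 CPM in FR lung they were 6.57 and 29.1 CPM. The medians of the 101 were 6.43 and 24.4 CPM, so a rise in CPM was not particular to them.

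The largest log2 fold changes were those of Pgam2, Cacng1, Ifnb1, Myf6 and Pkm, the last with the same rounded value as Myf6. Pgam2 had 0 to 5.48 CPM in FR>FFPE liver and 22.9 to 93.2 CPM in FFPE liver, with no overlap (log2 fold change 3.92, SE 0.51, edgeR adjusted p = 8.2e-07). Cacng1, a subunit of the calcium channel of skeletal muscle, had 0.464 to 6.42 and 15.6 to 100 CPM (log2 fold change 2.67, SE 0.51, edgeR adjusted p = 0.000179). Ifnb1, the interferon beta gene, had 0.578 to 9.46 and 18.7 to 108 CPM (log2 fold change 2.56, SE 0.49, edgeR adjusted p = 0.000102). Myf6, a transcription factor of muscle cells, had 0 to 11.5 and 11.7 to 71.7 CPM (log2 fold change 2.39, SE 0.61, edgeR adjusted p = 0.00251). Each FFPE liver library lay above each FR>FFPE liver library in CPM in 18 of the 101 genes, a smaller share than the 33.8% of all 2281 genes tested. No test of this difference was made.

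The smallest changes among the called genes were those of Pde6b and Aldh1l1, and AABR07059925.1 and Ptgdr were the 2 lower ones. Pde6b had means of 5.34 ± 3.27 CPM in FR>FFPE and 22.5 ± 13.4 CPM in FFPE liver (log2 fold change 1.05, SE 0.41, edgeR adjusted p = 0.0331). Aldh1l1 had 11.5 ± 5.11 and 48.3 ± 24.3 CPM (log2 fold change 1.08, SE 0.28, edgeR adjusted p = 0.00233). The log2 fold change of AABR07059925.1 was -2.25 (SE 0.41, edgeR adjusted p = 0.000105). The log2 fold change of Ptgdr was -1.13 (SE 0.39, edgeR adjusted p = 0.0192) while its mean CPM was higher in FFPE liver (49.9 against 45.8), so its direction depends on the scaling.

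By class, the genes called higher in FFPE than FR>FFPE liver were 8 of the 23 tested nervous system genes, 5 of 12 muscle genes, 3 of 10 steroid and pituitary genes, 2 of 8 gut and kidney genes, 3 of 10 liver and lipid genes, 4 of 10 immune genes, 3 of 5 cell division genes, 7 of 10 genes placed elsewhere and 3 of 12 unnamed loci. The lower ones were 1 immune gene and 1 unnamed locus. The class medians of the log2 fold change ran from 0.04 for steroid and pituitary genes to 1.53 for the genes placed elsewhere. No test of a class was made.

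In lung, FFPE 1 yr and FR>FFPE are the groups in which the floor was set, so the values of both sides chose the genes and their difference is given as a description. The FR>FFPE mean was the higher in 82 of the 101 genes, with a median ratio of 1.36. In the fit over all 2322 genes tested 25 of the 101 were called lower in FFPE 1 yr lung, where 6.59% of all genes were, and 2 were called higher, where 6.2% of all genes were. With the column total as library size 18 were lower and 2 higher. Nothing is read from these counts about the genes. The groups differ in the length of fixation and in freezing before it, which cannot be told apart.

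Ptgdr ran from 574 to 861 CPM in FR>FFPE lung and from 46.9 to 290 CPM in FFPE 1 yr lung, with a log2 fold change of -2.35, the lowest of the 101. Hsd17b2 had 57.6 to 99.2 and 7.6 to 36.2 CPM (log2 fold change -1.91), and neither gene's groups overlapped. The log2 fold change of Prl was -1.85, and its groups overlapped through FFPE 1 yr library 61. Cyp11b2, the aldosterone synthase of the adrenal cortex, had 48.7 to 109 and 15.2 to 49.8 CPM (log2 fold change -1.68), and its groups overlapped.

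Pkm and Cacng1 were the 2 genes called higher in FFPE 1 yr lung. Pkm, the pyruvate kinase of most tissues, had 14 to 36.1 CPM in FR>FFPE lung and 22.8 to 192 CPM in FFPE 1 yr lung (log2 fold change 2.22). Its mean was 0.16 CPM in FR lung, and it had no count in FR liver. Such a level is low for a gene of most tissues, and the reason was not tested. Cacng1 had 5.04 to 26.2 and 19 to 88.5 CPM (log2 fold change 1.3). The groups of both genes overlapped. Reg3g and Abcg8 had the smallest changes among the genes called lower, each with a rounded log2 fold change of -1.

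**Figure D4:**
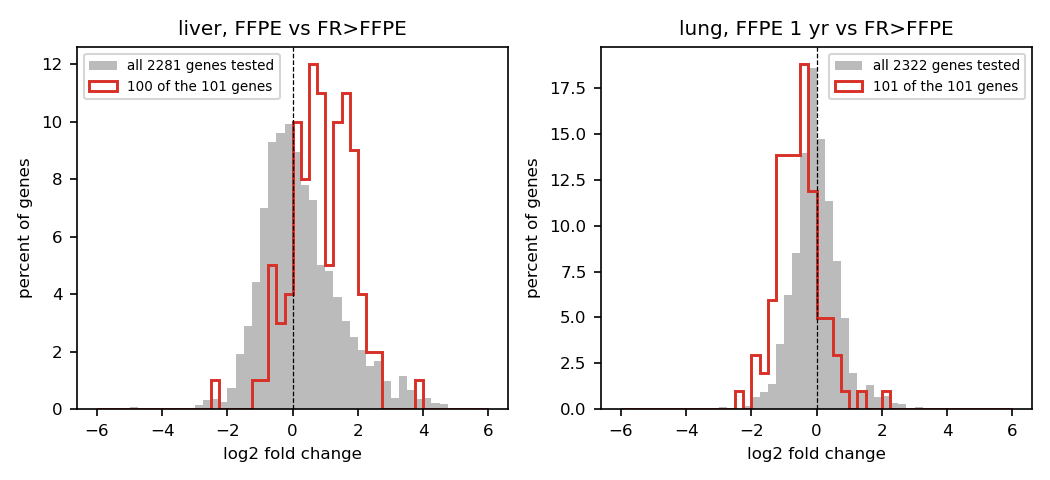
Log2 fold changes (horizontal axis) of all genes tested (grey bars) and of the 101 genes (red outline), as percent of the genes in each set, for FFPE vs FR>FFPE in liver (left) and FFPE 1 yr vs FR>FFPE in lung (right). The red outline is shifted to higher values in liver (median 0.83 against 0.07). It is shifted to lower values in lung (median -0.53 against -0.05), where the values of both groups chose the genes. In liver, other genes with low frozen lung levels also had a higher median CPM in FFPE than in FR>FFPE.

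Levels of the genes varied together from library to library. In FFPE 1 yr lung the median over the 101 genes ran from 13.9 CPM in library 62 to 70.2 CPM in library 61, with 21 and 101 genes at 20 CPM or more. The totals of these libraries were 789478 and 441569 counts. In FFPE liver it ran from 10.1 CPM in library 83, the deepest at 889128 counts, to 57.4 CPM in library 82, the shallowest. In FR>FFPE liver library 78 had a median of 14.9 CPM, where the other 5 had 2.85 to 6.86 CPM, at a total of 2961091 counts that lay within the range of its group. In FR>FFPE lung the medians stayed within 34.1 to 60.5 CPM. The TMM factor, a scaling over all genes kept by the filter, was also lowest in library 62 (0.993) and highest in library 61 (1.45) of FFPE 1 yr lung. In FFPE liver it was lowest in library 83 (1.35) and highest in library 82 (2.84). Library 78 had the highest factor of FR>FFPE liver (1.19). Such shifts between libraries were thus not particular to the 101 genes. The part of depth in these levels was not tested.

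**Figure D5:**
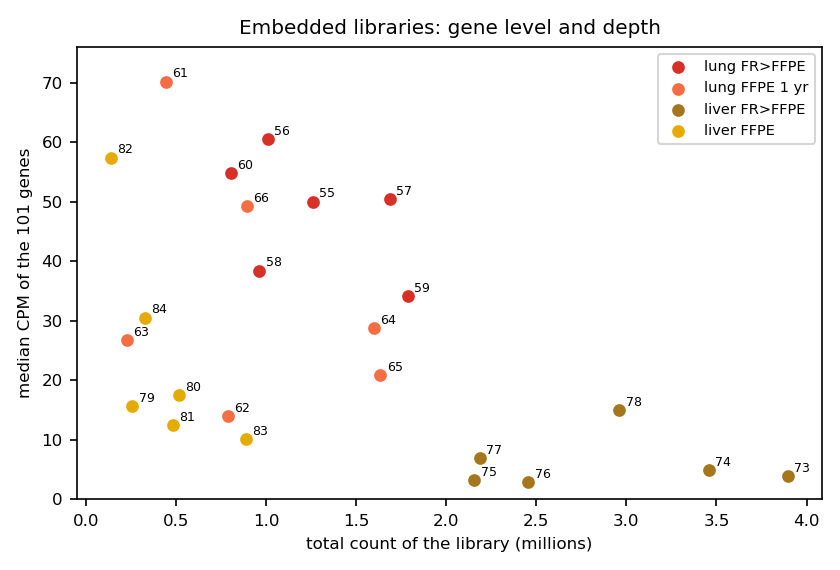
Median CPM of the 101 genes (vertical axis, from 0) against the total count of the library (horizontal axis, units of 1000000 counts) for the 24 embedded libraries, labelled by library number and coloured by group. The FR>FFPE liver libraries are the deepest, with medians of 2.85 to 6.86 CPM apart from library 78, and FFPE liver library 82, the shallowest, has a median of 57.4 CPM. Libraries 78 and 82 also had the highest TMM factors of their groups (1.19 and 2.84), a scaling over all genes kept.

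Mouse liver of the same study was measured by total RNA sequencing after removal of ribosomal RNA, from male B6C3F1 mice given water (Con) or 600 ppm phenobarbital (PB), with 6 mice in each. A liver of each mouse was FR, FR>FFPE, FFPE or frozen and then fixed in 70% ethanol before embedding (FR>OH). A gene of the same symbol was listed for 84 of the 101. In FR mouse liver 60 of these 84 had a mean under 1 CPM over 12 libraries. None of the 60 reached 20 CPM in an embedded preparation, and the highest means were 1.05 CPM in FR>OH (Lrrc14b), 1.32 CPM in FR>FFPE (Selp) and 1.09 CPM in FFPE (Stil). Over all genes of the mouse table with a count and a mean under 1 CPM in FR liver, 7019 in number, none reached 20 CPM in any of the 3 preparations. Symbols were matched without a table of orthologues. The mouse differs from the rat in species, in assay and in its input, which was purified RNA in every preparation. The limits of 1 and 20 CPM were set for rat libraries of a panel of 2603 genes. Each mouse library divided its counts among 13985 to 15399 genes, so an equal CPM is not an equal relative level. The lack of mouse genes at 20 CPM is therefore a description and is not compared with the rat.

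Of the 84 genes 29 passed the mouse filter (a geometric mean over 1 count). A gene was called where both the Con and the PB mice passed an edgeR adjusted p of 0.05 and 2-fold, with equal sign. Only Chrna4 was called in FFPE, FR>FFPE and FR>OH against FR, where 9.52%, 3.96% and 2.5% of all 13360 genes were called higher. Frozen livers held 7.08 ± 4.3 CPM of Chrna4 in Con and 9.81 ± 3.39 CPM in PB mice, and FFPE livers 24.5 ± 14.2 and 42.7 ± 18.3 CPM (SD, n = 6 each). Its log2 fold change, averaged over Con and PB, was 1.95 in the FFPE contrast, 1.98 after freezing and formalin and 1.83 after freezing and ethanol. The edgeR adjusted p-values, the larger of Con and PB, were 0.00109, 0.000407 and 0.00645 in the same order. Chrna4 was higher with TMM scaling as well. With TMM, 1 same-symbol gene was also called lower in FFPE against FR. In that setting 4.28% of all 13360 genes were called higher and 3.59% lower.

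AML12 cells, a line of mouse hepatocytes, were measured by TempO-Seq as lysates after 10 min with vehicle or 0.006%, 0.03% or 0.1% NBF, with 3 libraries each. A count was found for 56 genes of the same symbol, and 35 of these had a mean under 1 CPM with vehicle. None of the 35 reached 20 CPM at any dose. Their median was 0.18 CPM with vehicle and 0.358 CPM with 0.1% NBF, and the highest mean was 3.6 CPM (Elovl3 at 0.006%). No test was made on these sparse counts.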

How the data were processed

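The genes, classes and lists were chosen with earlier results of these data known. The authors deposited tables of estimated counts per gene (98.9% of values whole in rat lung and 99% in rat liver, zeros included) and tables of log2 values, which were not used except that 48 of the 101 genes were found among those listed for lung and 24 for liver. The submitters' processing notes name CASAVA 1.8.2, STAR 2.5.3a and Partek. Coordinates are those of the count tables, with rn6 named in the same notes. The aligner and counting rule for TempO-Seq are not given in the sources used here. CPM used the column total. Counts were rounded and fitted by tissue in edgeR 4.0.16 (R 4.3.3), with TMM, edgeR's filter and library 54 left out. SE came from the test statistic. The mouse fit used the total over kept genes (13360 with a geometric mean over 1 count, offset 0.0001). In simulated data with 4-fold changes in 200 genes, the test recovered 91.5% in liver FFPE vs FR>FFPE, 97% in lung FFPE 1 yr vs FR>FFPE and 93% in mouse FFPE vs FR. The changed genes were drawn at random from all genes fitted, so these rates do not describe genes of low count such as the 101. Alternatives were DESeq2 1.42.0, other library sizes, filters and floors, libraries left out, and the mouse as a block. No replicate libraries were identical (smallest chi-square per degree of freedom 2.56). The named genes were the 12 with the highest mean in embedded lung, the 8 highest and 4 lowest in embedded liver, the 4 largest and 4 smallest called log2 fold changes of each contrast between embedded groups, and the 3 genes inside and outside each limit. A gene named beside a class or a count was chosen after its values were seen. Intervals and limits from counts cover counting error only. The pairing of mouse libraries comes from the mouse number in their names. Deviations from the group means correlated at a median r of 0.708 when 2 libraries came from 1 mouse (above 0.1 in 72 of 72 pairs) and of -0.125 when they did not. In Python 3.11.15 the tables and figures were made with pandas 2.3.3 and matplotlib 3.10.9.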

Additional observations from a re-analysis of the deposited data

Results flagged for a closer look

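Single libraries stood apart from the others of their group by Dixon's test (95% level) in 31 of 124 groups of 6 or 5 values examined; chance alone flags about 5% of groups, and genes of 1 library are not independent. FR>FFPE liver library 78 was high in the summed level of the 101 genes (3050 CPM), in their median (14.9 CPM) and in Afp (31.1 CPM), Ckmt2 (15.2 CPM), Hsd3b2 (30.1 CPM), Ifnb1 (9.46 CPM), Il20 (27 CPM), LOC100360856 (1160 CPM), Myf6 (11.5 CPM), Myoz2 (20.6 CPM), Pde6b (11.8 CPM), Pkm (8.44 CPM), Ptgdr (97.9 CPM) and Selp (26 CPM). FFPE liver library 82, with the fewest counts, was high in AABR07059925.1 (327 CPM), Acot4 (143 CPM), Cacng1 (100 CPM), Cyp11b2 (43 CPM), Hsd3b2 (151 CPM), Ifnb1 (108 CPM) and Ptgdr (165 CPM), and library 84 in Drd2 (30.5 CPM). FFPE 1 yr lung library 61 was high in Afp (92.9 CPM), LOC100909868 (67.9 CPM) and Prl (63.4 CPM), and library 65 in Pgam2 (199 CPM). In FR>FFPE lung Slc7a13 was high in library 56 (41.6 CPM) and Pkm in library 60 (36.1 CPM), while AABR07059925.1 was low in library 58 (109 CPM) and Cacng1 in library 59 (5.04 CPM). Pgam2 was high in FR>FFPE liver library 77 (5.48 CPM).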

How the results depend on the processing

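The rule gave 101 genes, 112 when genes over 1% of any library were left out of the total (90 shared), 109 with frozen library 54 kept (all 101 shared), 143 at a floor of 10 CPM, and 74 on TMM library sizes (all among the 101). Leaving out 1 frozen lung library gave 102 to 105. A floor of 50 CPM gave 13 and a demand on every single library 11. In liver FFPE vs FR>FFPE the column total as library size gave 69 genes higher in place of 38; the cause was not tested. The other counts of calls stayed within 1.5 times of theirs, among them the genes called lower in FFPE 1 yr lung, 18 to 33 against 25. The added alternatives, chosen after seeing the data, left out libraries 82 and 63, the latter giving 19 such genes. Without the 12 unnamed loci the median member level was 6.39 CPM in FR>FFPE and 23.4 CPM in FFPE liver, and without library 82 the latter was 18.4 CPM. In mouse the number of same-symbol genes called higher was 1 in each preparation, with and without the mouse as a replicate block. No paired analysis was possible because the rat groups share no numbers in the labels. Depth limits FFPE liver most: the median member there had 4 to 10 counts a library.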
